A study of Homo sapiens with 12 samples.

Results

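FAM3A, FAM3B, FAM3C and FAM3D make up a small family of secreted proteins, and FAM3C2P is annotated as a processed pseudogene of FAM3C. These 5 genes were followed among the 57820 gene IDs counted in AsPC-1 cells, an established human pancreatic cancer line. They were found by pairing the Ensembl IDs of the count files with symbols, and all 5 were matched. The set was chosen by the FAM3C2P counts, which fell with an siRNA against ARNT, and the question was whether its parent FAM3C fell too. Of the 5, FAM3A, FAM3C and FAM3C2P passed the filter on low counts, which left 16999 genes tested.

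Cells received either scrambled siRNA (siControl) or siRNA against ARNT (siARNT). On the following day they were divided, and then kept at 21% O2 (normoxia) or at 1% O2 for 24 h (hypoxia). This gave 4 groups of 3 replicates, lettered A to C, and no allele or other agent is named in the labels. ARNT pairs with the oxygen-regulated HIF alpha proteins and with the aryl hydrocarbon receptor, so the comparison asks which RNAs depend on it at each oxygen level. One cell line was used and the labels do not give the number of siRNA sequences, so an effect of ARNT and another effect of the siRNA cannot be told apart. The labels do not say what the replicate letters share, so p-values measure the spread between replicates of a single line.

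Libraries held 38.53 to 84.34 M gene counts. ARNT counts were 62.4 ± 1.53 CPM (counts per M counts, with TMM scaling, mean ± SD, n = 3) in normoxia siControl and 13.4 ± 0.56 in normoxia siARNT. In hypoxia they were 69.1 ± 3.81 in siControl and 15.3 ± 1.04 in siARNT, and ARNT was called lower in both comparisons. All 8 ductal epithelial markers looked at were counted in every library, with a summed level of 5914 to 10003 CPM. The highest sum was in normoxia siARNT (7108 to 10003 CPM), and its part in the results was not tested. The 13 markers of islet, acinar, fibroblast, endothelial and immune cells summed to 1.04 to 2.24 CPM, with INS, CHGA, AMY2A and CD3E at 0 in all 12 libraries.

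FAM3 proteins share a globular fold and are studied as cytokine-like factors. FAM3C, also called ILEI, is known for its part in epithelial-to-mesenchymal transition and in metastasis, and its translation is held back by a complex that contains the RNA-binding protein PCBP1. FAM3B, also called PANDER, is known as a product of pancreatic islets, FAM3D of the gut, and FAM3A is widely expressed and linked to mitochondrial metabolism. A processed pseudogene arises when a spliced mRNA is copied back into the genome, so it lacks the introns of its parent.

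The sequences of FAM3C and FAM3C2P set what their counts can show, so they are given first. FAM3C lies on the minus strand of chromosome 7 (GRCh38, GENCODE 29, 121348851 to 121396364), and its main transcript has 10 exons and 2508 bases. FAM3C2P lies on the plus strand of chromosome X (23075758 to 23076767), within PTCHD1-AS, a long non-coding RNA gene on the opposite strand that had 0 to 1 counts per library. Its annotated transcript of 681 bases consists of 2 blocks with 329 bases between them. All 681 bases were identical to the FAM3C coding sequence, whose length with the stop codon is 684 bases. Both are the GENCODE 29 transcript records, and the genome sequence of the chromosome X locus was not analysed here. The first 300 bases of each are printed to show this, and capitals in FAM3C mark the 2 bases on each side of its exon boundaries, which the pseudogene lacks:

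FAM3C: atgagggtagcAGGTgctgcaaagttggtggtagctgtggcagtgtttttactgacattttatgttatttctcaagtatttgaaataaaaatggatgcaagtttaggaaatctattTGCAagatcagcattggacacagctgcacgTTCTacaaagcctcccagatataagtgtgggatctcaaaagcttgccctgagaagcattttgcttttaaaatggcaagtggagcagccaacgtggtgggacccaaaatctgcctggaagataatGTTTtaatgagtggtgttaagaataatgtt

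FAM3C2P: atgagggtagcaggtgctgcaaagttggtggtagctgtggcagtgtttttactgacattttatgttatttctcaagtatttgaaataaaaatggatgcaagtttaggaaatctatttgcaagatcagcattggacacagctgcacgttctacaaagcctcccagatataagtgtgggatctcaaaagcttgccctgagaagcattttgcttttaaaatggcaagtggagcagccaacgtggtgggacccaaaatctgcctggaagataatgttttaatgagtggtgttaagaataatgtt

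Reads were 125 bases long and single. Each of the 557 windows of 125 bases in the pseudogene transcript was found in a FAM3C transcript without a mismatch, and 554 of them span a FAM3C exon boundary. Such identity is rare in the annotation. Among 2879 other processed pseudogenes of at least 500 bases that are named after a parent gene, 3 were contained whole in a parent transcript. By these records alone, a read inside these 681 bases cannot be given to either gene, so FAM3C2P counts are uncertain as a measure of transcription of the chromosome X locus. The gene model that the authors counted with is not given in the sources used here, and it may extend beyond these 681 bases.

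FAM3C was the abundant member of the family. In normoxia siControl its normalised count was 1038, 914 and 977 CPM in replicates A, B and C. In hypoxia siControl it was 1010, 1024 and 914 CPM. In normoxia siARNT it was 169, 137 and 185 CPM. In hypoxia siARNT it was 163, 153 and 142 CPM. All 6 siControl libraries were far above all 6 siARNT libraries: the lowest siControl value (914 CPM) was 4.94 times the highest siARNT value (185 CPM). The 2 oxygen levels overlapped within each siRNA. In bulk RNA, fewer cells with a transcript and less of it per cell cannot be told apart.

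**Figure D1:**
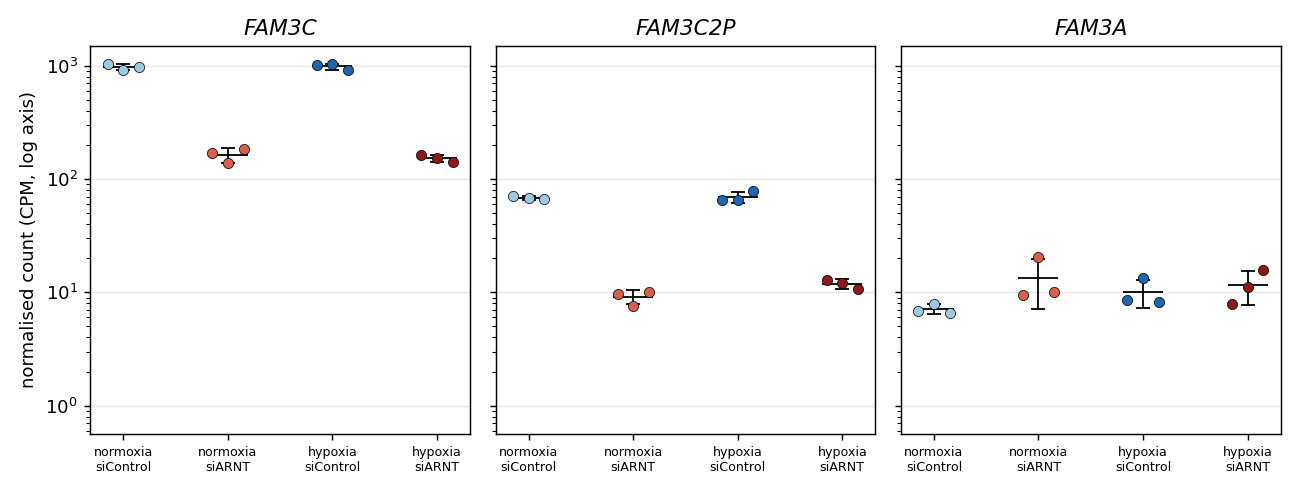
Normalised counts (CPM, log axis) of FAM3C, FAM3C2P and FAM3A in each of the 12 libraries, by oxygen level and siRNA, with bars for the mean ± SD of 3 replicates. FAM3C lay between 914 and 1038 CPM in siControl and between 137 and 185 CPM in siARNT, FAM3C2P between 64.7 and 77.7 CPM in siControl and between 7.63 and 12.9 CPM in siARNT, and FAM3A overlapped between siRNAs in hypoxia.

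The parent fell as its pseudogene did. With siARNT, FAM3C was at 16.8% of its siControl level in normoxia (976 ± 61.8 against 164 ± 24.2 CPM) and at 15.5% in hypoxia (983 ± 59.7 against 153 ± 10.2 CPM). By edgeR's quasi-likelihood test over all genes, its log2 fold change was -2.57 (SE 0.11, adjusted p = 3.61e-08) in normoxia. In hypoxia it was -2.69 (SE 0.11, adjusted p = 1.31e-08). Of all genes tested, 20.2% were called in the normoxia comparison (10.8% as lower) and 29.1% in hypoxia (14.7% as lower). The normoxia count of 3431 genes fell to 1571 without replicate C of normoxia siControl and to 1604 without replicate A. The siRNA groups did not overlap for 46.5% of genes in normoxia and 40.3% in hypoxia. Because reads can be shared with the pseudogene that prompted the choice, the FAM3C result is not independent evidence of direction. Both calls were kept under all alternatives run. Among these, the sum of FAM3C and FAM3C2P counts as 1 gene could barely differ, since FAM3C2P counts were 5.41% to 8.5% of FAM3C counts. That sum is therefore no support for the calls.

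FAM3C was among the genes with the lowest siARNT fold changes. Of 16999 genes tested, 5 had a lower log2 fold change in normoxia and 23 in hypoxia. The normoxia count includes FAM3C2P itself (-2.91), which chose the set and can share reads with FAM3C. By the mean over all 12 libraries, siARNT included, 200 genes were at least as abundant as FAM3C, and none of them had a lower fold change in either comparison. In normoxia siControl alone, its level was exceeded by 83 genes, or 0.488% of those tested. The fall in FAM3C was numerically larger than that of ARNT itself, which was -2.22 (SE 0.07) in normoxia and -2.17 (SE 0.07) in hypoxia, a difference that was not tested.

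FAM3C was not called for oxygen. The log2 fold change for hypoxia was 0.01 in siControl (SE 0.1, adjusted p = 0.959, edgeR), where 25.3% of genes were called. It was -0.10 in siARNT (SE 0.1, adjusted p = 0.589, edgeR), where 4.09% were called. The interaction, taken as the oxygen effect under siARNT less the oxygen effect under siControl, was -0.11 (SE 0.14, adjusted p = 0.668, edgeR), with 4.69% of genes called. A missed threshold does not show that the levels were equal.

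**Figure D2:**
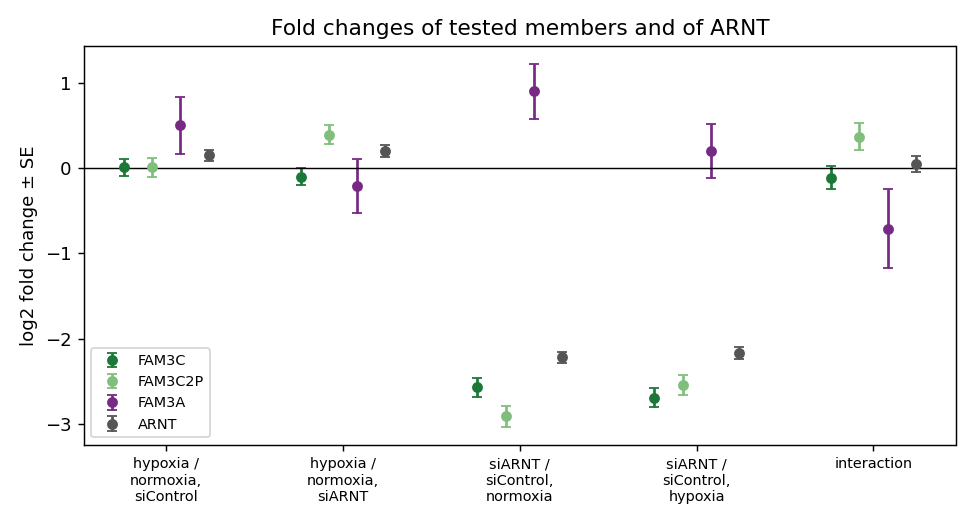
Log2 fold changes with their standard errors (edgeR, 3 replicates per group) for FAM3C, FAM3C2P, FAM3A and the siRNA target ARNT in the 5 comparisons. FAM3C was at -2.57 and -2.69 with siARNT, below ARNT at -2.22 and -2.17, and near 0 for oxygen.

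Reads across FAM3C splice junctions, from the deposited splicing files, gave a second view of the spliced mRNA. The exon 1 to exon 2 boundary lies 41 bases before the start codon and so outside the 681 shared bases. In normoxia siControl it was crossed by 3.22, 3.92 and 4.07 reads per M in replicates A, B and C, and in normoxia siARNT by 0.62, 0.431 and 0.471. In hypoxia the values were 3.53, 3.8 and 3.48 in siControl and 0.642, 0.679 and 0.316 in siARNT. The siRNA groups did not overlap at either oxygen level, as was so for 46.5% of all genes in normoxia and 40.3% in hypoxia. The share over all junctions was not computed. The log2 ratio of the group means was -2.88 in normoxia and -2.72 in hypoxia, from as few as 13 reads in a library.

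The other junctions gave similar ratios. Exon 7 to exon 8, inside the coding sequence, was crossed by 194 ± 12.6 reads per M in normoxia siControl and 28.7 ± 3.51 in normoxia siARNT (n = 3). In hypoxia these were 185 ± 1.76 and 28.9 ± 3.42. Over the 5 junctions, the log2 ratio was between -2.88 and -2.76 in normoxia, and between -2.76 and -2.68 in hypoxia. Junctions nearer the 5′ end held fewer reads: exon 7 to exon 8 had 43.1 to 80 times the reads of exon 1 to exon 2 across libraries (median 51.3). The cause of this gradient was not tested.

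**Figure D3:**
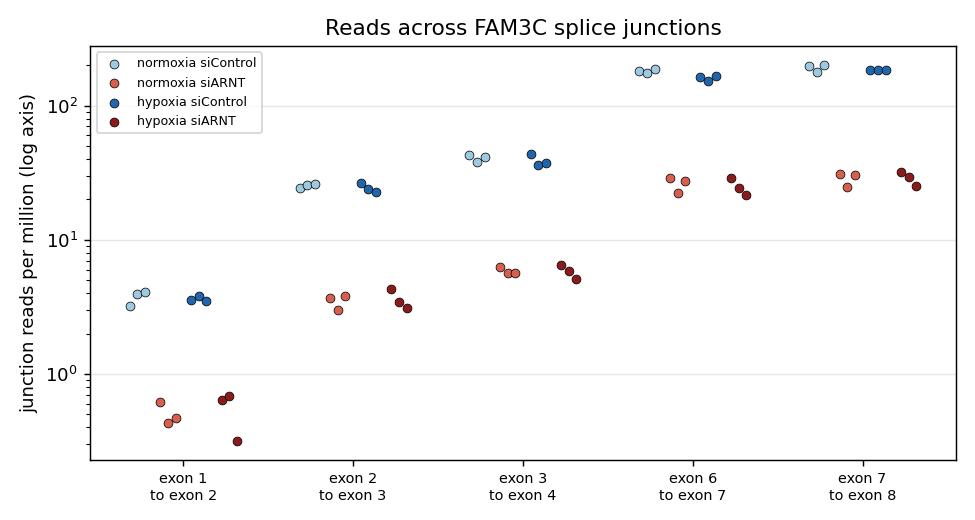
Junction reads per M (log axis) across 5 FAM3C splice junctions in each of the 12 libraries, coloured by group. At every junction the 6 siARNT libraries lie below the 6 siControl libraries, and levels climb from exon 1 to exon 2 (3.73 reads per M in normoxia siControl) to exon 7 to exon 8 (194).

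FAM3C2P counts moved with those of FAM3C. They were 71.3, 68.1 and 66.0 CPM in normoxia siControl and 9.72, 7.63 and 10.0 CPM in normoxia siARNT (replicates A, B and C). In hypoxia they were 64.7, 65.1 and 77.7 CPM in siControl and 12.9, 12.2 and 10.6 CPM in siARNT. The lowest siControl library was 5.01 times the highest siARNT library. The siARNT log2 fold changes were -2.91 in normoxia and -2.54 in hypoxia. These chose the gene and are given without a test.

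Per kilobase of annotated exon, the counts given to the pseudogene were closer to those of its parent. They were 101 ± 3.9 CPM per kilobase against 285 ± 18.1 for FAM3C in normoxia siControl. Reads in the 681 shared bases can belong to either gene, and the gene model counted may be longer. The value is therefore no measure of expression of the chromosome X locus. FAM3A stood at 1.4 ± 0.138 CPM per kilobase.

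Hypoxia left FAM3C2P close to its level in siControl (log2 fold change 0.01, SE 0.11, adjusted p = 0.938, edgeR). In siARNT it was 11.9 ± 1.18 against 9.12 ± 1.3 CPM, and the 3 hypoxia libraries (10.6 to 12.9 CPM) lay above the 3 normoxia libraries (7.63 to 10.0 CPM). That difference, 0.39 on the log2 scale (SE 0.11), missed the threshold in edgeR (adjusted p = 0.08). Groups did not overlap for 22.2% of all genes in this comparison. It passed with DESeq2 (adjusted p = 0.0489) and with a correction for GC content in edgeR (log2 fold change 0.31, adjusted p = 0.00387), a setting that called 3786 genes in place of 696. In edgeR it did not pass with the compared samples alone (adjusted p = 0.306). Nor did it pass with the replicate letter within each siRNA as a block (adjusted p = 0.134, edgeR). This setting, called the well block, assumes that a letter marks a shared well. The difference also did not pass in any of 6 edgeR fits that left out 1 library (adjusted p = 0.0648 to 0.231). The siARNT libraries are among those that chose FAM3C2P, so p-values within siARNT are not independent of that choice.

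The ratio of FAM3C2P to FAM3C counts within a library needs no scaling. It was 6.87%, 7.45% and 6.75% in normoxia siControl and 7.02% ± 0.375 on average (SD, n = 3). Under normoxia siARNT it averaged 5.57% ± 0.162. The hypoxia averages were 7.09% ± 1.22 for siControl and 7.79% ± 0.295 for siARNT. Across all 12 libraries it ranged from 5.41% to 8.5%, while FAM3C itself varied 7.55-fold. Hypoxia added 2.22 percentage points in siARNT (exact permutation test, two-sided, p = 0.1) and 0.0645 points in siControl (exact p = 1.0), and 0.1 is the smallest p that 3 against 3 allows. The ratios did not overlap between oxygen levels in siARNT, whereas in siControl they did. Counts of 22.2% of all genes did not overlap for hypoxia in siARNT. The share for ratios of other pairs was not computed. Among 363 other pairs of tested genes named as pseudogene and parent, hypoxia in siARNT shifted pseudogene less parent by a median log2 of 0.46. The shift was 0.49 for FAM3C2P less FAM3C, and 176 of the 363 pairs were at least as far apart, in either direction. The rise of the ratio in siARNT was thus near the median of such pairs. Since the siARNT libraries helped to choose FAM3C2P, the permutation test within siARNT is not independent of that choice.

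**Figure D4:**
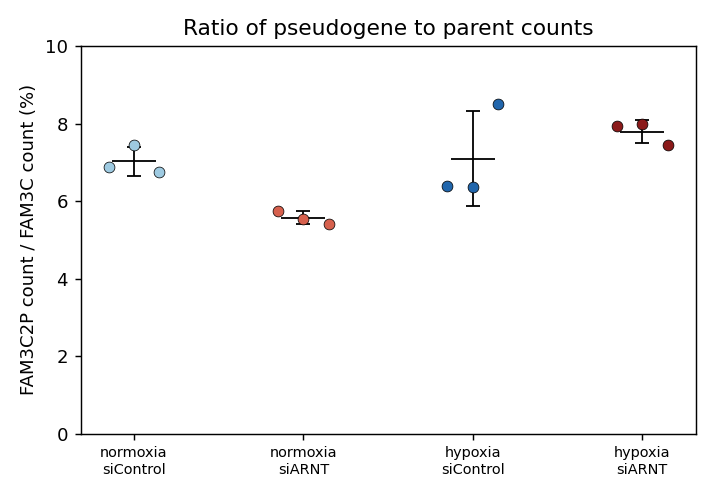
FAM3C2P counts as a percentage of FAM3C counts in each library, with the mean ± SD of 3 replicates. All 12 libraries lie between 5.41% and 8.5%, with the 3 normoxia siARNT libraries the lowest.

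The siARNT log2 fold change of FAM3C2P minus that of FAM3C was -0.33 in normoxia and 0.15 in hypoxia. It contains the values that chose the set, so it is a description from which nothing is read. In the same files, 363 other pairs of tested genes (238 parents) are named as pseudogene and parent. The lowest fold change of another parent was -1.11 in normoxia and -1.4 in hypoxia, so these pairs hold no parent that fell as far as FAM3C.

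**Figure D5:**
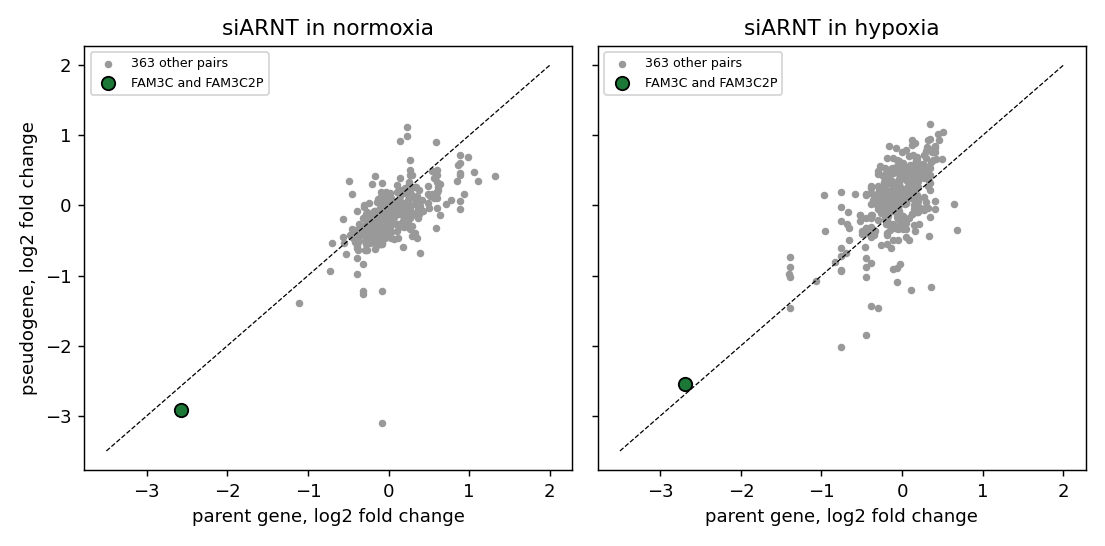
SiARNT log2 fold change of the pseudogene (y) against that of its parent (x) in normoxia and hypoxia, for 363 other pairs (grey) and FAM3C with FAM3C2P (green), with a dashed line of equality. The FAM3C pair, given as a description, lies at -2.57 and -2.91 in normoxia and at -2.69 and -2.54 in hypoxia, beyond every other parent.

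FAM3A, on the minus strand of chromosome X (154506159 to 154516242), was expressed at a low level and was not called in any comparison. It was 6.84, 7.94 and 6.63 CPM in normoxia siControl and 9.48, 20.5 and 10.0 CPM in normoxia siARNT. In hypoxia it was 8.61, 13.4 and 8.24 CPM in siControl and 7.88, 11.2 and 15.6 CPM in siARNT. The normoxia groups did not overlap, as was so for 46.5% of all genes, and replicate B of normoxia siARNT stood highest. That library stood apart over the genes at large, not in FAM3A alone. Its counts differed from replicates A and C with a chi-square per degree of freedom of 89.11 and 72.95, against 4.3 for A with C. It was not the only such library. In hypoxia siARNT the value was 61.18 for A with C, and 15.15 and 18.53 for B with A and C. In hypoxia siControl it was 20.51 and 29.99 for B with A and C, against 6.58 for A with C. Normoxia siControl had 5.84 to 11.62. The siARNT log2 fold change of FAM3A was 0.90 in normoxia (SE 0.32, adjusted p = 0.0681, edgeR) and 0.20 in hypoxia (SE 0.32, adjusted p = 0.696, edgeR).

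The size of the FAM3A siARNT fold change in normoxia depended on 1 library, though its direction did not. Without replicate B of normoxia siARNT it was 0.44 (adjusted p = 0.276, edgeR), and without replicate A it was 1.10 (adjusted p = 0.0436, edgeR). It also passed with DESeq2 (0.90, adjusted p = 0.0143) and with the replicate letter as a block (0.83, adjusted p = 0.0372, edgeR). For hypoxia, the FAM3A fold change was 0.50 in siControl (adjusted p = 0.301) and -0.21 in siARNT (adjusted p = 0.736), both with edgeR. The siControl libraries did not overlap between oxygen levels, as for 46.8% of all genes.

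FAM3B (chromosome 21, 41304212 to 41357431, plus strand) and FAM3D (chromosome 3, 58633946 to 58666848, minus strand) were at the limit of detection. FAM3B had 0 to 3 counts per library and FAM3D 0 to 4. A count of 3 corresponds to 0.0356 to 0.0779 CPM at these depths. FAM3D also overlaps its antisense gene FAM3D-AS1, which had 0 to 3 counts. Neither gene was tested, and no direction was read from these counts.

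Splicing of the members showed no called change. The files hold 13 events of members (8 of FAM3A, 5 of FAM3C), of which 9 had enough junction reads to test. None was called in 45 tests with edgeR's quasi-likelihood test on inclusion and exclusion reads, and 3 had an unadjusted p under 0.05. Among all events, 0.207% were called for siARNT in normoxia, 0.164% for siARNT in hypoxia, 0.105% for hypoxia in siControl, 0.0358% for hypoxia in siARNT and 0.00843% in the interaction. The lowest adjusted p of a member event was 0.559, for a 98-base exon of FAM3A whose inclusion from pooled reads was 30.4% in normoxia siControl and 18.6% in normoxia siARNT (deposited fractions of 25% to 33% and 17% to 22% over 3 libraries each), from 32 to 169 junction reads per library. For the 51-base exon 7 of FAM3C, the junction that skips it was listed at 0 in 5 libraries. In the other 7 its share was 4.27% to 6.24%. As for the pooled FAM3A inclusion, inclusion reads were averaged over their junctions, so this is not a share of all junction reads.

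The promoter of FAM3C was read for ACGTG and GCGTG, letters within sites that HIF or the aryl hydrocarbon receptor, both partners of ARNT, are known to bind. The motif CACGTG was searched for as well, and which factor would bind it was not tested. The bases upstream of the annotated starts are printed because the gene fell with siARNT. The RefSeq table (GRCh38.p14) gives them as chr7:121396365-121396558 on the minus strand, 194 bases, with capitals for the motif CACGTG, which contains ACGTG on both strands:

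FAM3C upstream: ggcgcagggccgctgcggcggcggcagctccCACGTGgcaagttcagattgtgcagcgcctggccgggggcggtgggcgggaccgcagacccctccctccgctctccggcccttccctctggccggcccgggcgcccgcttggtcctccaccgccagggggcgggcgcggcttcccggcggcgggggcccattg

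The motif starts 219 bases before the RefSeq start site. In the full 300-base RefSeq promoters, searched on both strands, CACGTG was present in 7.26% of 35116 promoters, ACGTG in 21.4% and GCGTG in 36.5%. FAM3C also held GCGTG once, 42 bases before its start. The FAM3A promoter held ACGTG once and GCGTG once, and that of FAM3D held none of the 3. The table was matched for 3 of the 5 members. A match of letters is a description and shows no binding.

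The neighbours of FAM3C had much smaller fold changes than FAM3C. Of its 6 nearest protein-coding neighbours, 5 were tested, and none was called with siARNT in normoxia, where 20.2% of all genes were (median log2 fold change -0.01, all genes 0.01). In hypoxia, CPED1 was called higher (0.83, adjusted p = 0.0358) and ING3 (-0.34, adjusted p = 0.046) and WNT16 (-0.55, adjusted p = 0.0342) lower, all with edgeR. Of all genes, 14.4% were called higher and 14.7% lower in that comparison. None of these 3 calls was kept under all alternatives. WNT16, the closest at 7747 bases, is a Wnt ligand. PTPRZ1 was at -0.01 and 0.15, AASS at 0.33 and 0.82, and FEZF1 had no counts. Near FAM3C2P, ACOT9 was called lower in normoxia (-0.29, adjusted p = 0.0309, edgeR, not kept under all alternatives), PRDX4 and PHEX were not called with siARNT, and CBLL2, DDX53 and PTCHD1 had no counts.

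Across the 12 libraries, the genes whose log2 CPM followed FAM3C most closely among 9854 were RASSF3 (Pearson r = 0.9976), the unnamed gene ENSG00000259758.1 (0.9963), TMTC2 (0.9945), AKTIP (0.9943) and NQO1 (0.9931). FAM3C2P came 16th (0.9893). For FAM3C2P the first 5 were ARNT (0.9964), ITGB6 (0.9956), ENSG00000259758.1 (0.9943), TMTC2 (0.9938) and TMEM254 (0.9931). RASSF3, a member of the Ras association domain family, was 127 CPM in normoxia siControl and 28.6 CPM in normoxia siARNT. The libraries share 2 siRNA groups, so these correlations mostly restate that difference and have no p.

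Genes known to act with or on FAM3C changed in both directions. Of 18 such genes (translation control, receptors, proteases, STAT3 and TGF-beta signalling), all were tested. With siARNT in normoxia 7 were called higher and 2 lower (median log2 fold change 0.16, all genes 0.01; 9.42% of all genes higher and 10.8% lower). In hypoxia 4 were higher and 2 lower (median 0.14, all genes 0.02; 14.4% and 14.7% of all genes). These lists were drawn up with earlier results of these data known.

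LIFR, the receptor subunit reported to bind FAM3C, rose from 7.92 ± 0.271 to 12.2 ± 1.46 CPM in normoxia (log2 fold change 0.63, SE 0.11, adjusted p = 0.00205). Its hypoxia fold change was 0.66 (adjusted p = 0.000598). The TGF-beta receptor TGFBR2 rose by 0.57 in hypoxia (adjusted p = 1.55e-05). Its smaller rise of 0.22 in normoxia (adjusted p = 0.019) lost the call in 5 of 12 alternatives. DAB2, an adaptor whose mRNA is held back by the same complex as FAM3C, rose by 0.58 in hypoxia (adjusted p = 6.14e-05). Its normoxia rise of 0.23 (adjusted p = 0.0361) lost the call in 8 of 12. SMAD3, a TGF-beta signal transducer, fell at both oxygen levels, by 0.31 under normoxia (adjusted p = 0.00149) and 0.39 under hypoxia (adjusted p = 0.000122). EEF1A1, a translation elongation factor in that complex, fell by 0.44 in hypoxia (adjusted p = 5.41e-05), and in normoxia it was at -0.09 (adjusted p = 0.228). PCBP1 was not called (0.10 and -0.15). All of these used edgeR over all genes.

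Of 9 readouts of epithelial and mesenchymal state, 6 were tested, and CDH2, FN1 and TWIST1 had 0 to 6 counts. With siARNT, 2 were called higher and 0 lower in normoxia (median 0.22), and 0 higher and 2 lower in hypoxia (median -0.05). Over all genes tested, 9.42% were called higher and 10.8% lower in normoxia (median 0.01), and 14.4% higher and 14.7% lower in hypoxia (median 0.02). With siARNT in normoxia the epithelial cadherin CDH1 rose from 157 ± 2.86 to 206 ± 5.79 CPM (log2 fold change 0.39, adjusted p = 0.000245, edgeR). The mesenchymal filament VIM rose as well, from 1559 ± 64.4 to 2099 ± 126 CPM (0.43, adjusted p = 0.000782, edgeR). In hypoxia neither was called (-0.03 and 0.05). There the transcription factors SNAI2 (-0.41, adjusted p = 0.00163) and ZEB2 (-1.22, adjusted p = 0.00449) fell, by edgeR, with ZEB2 below 1 CPM in every group. Among genes linked to the other members, PPARG, a nuclear receptor linked to FAM3A, fell by 0.51 in hypoxia (adjusted p = 0.000111, edgeR) and was at -0.12 in normoxia, while FPR1 and FPR2, receptors linked to FAM3D, had 0 to 3 counts.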

How the data were processed

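Per the labels' protocols, poly(A) RNA was made into stranded libraries and read single-end for 125 bases. The deposited gene files hold counts, whole reads per gene ID. The deposited splicing files hold counts per junction and percent spliced in as a fraction, per the file headers. For intron retention they hold the coverage of the intron as deposited, which was not tested. The submitters' processing notes name Trimmomatic, STAR 2.4.2a and GRCh38.p10, without a role; the counting annotation is not given in the sources used here. FAM3C exons 1 to 8 were matched in the splicing files by length at 1 constant offset, so their coordinates are not those of GENCODE 29 (GRCh38) and are not printed; which build the files use was not settled. Summary lines naming no gene (22.71 to 25.2% of reads) were left out.

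All 12 libraries entered 1 robust quasi-likelihood fit (edgeR 4.0.16 under R 4.3.3) after filterByExpr and TMM scaling. Genes were called at an adjusted p under 0.05 (Benjamini-Hochberg), and SE was the log2 fold change over the root of F. Splicing used inclusion and exclusion reads (mean of at least 10 per library), library effects and a quasi-binomial spread, a choice made after a first version with an estimated dispersion did poorly on simulated data. Both fits were tested on simulated data. DESeq2 1.42.0 was an alternative. Symbols, positions and transcripts come from GENCODE 29, promoters from RefSeq. Intervals and floors cover counting error only. The members and lists were chosen with earlier results of these data known. Named genes were the 5 members, up to 5 genes per list by lowest p among those called, the genes not tested, 3 neighbours on each side, and the 5 genes of highest correlation (mean of at least 5 CPM). PCBP1 was named after its value was seen.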

Additional observations from a re-analysis of the deposited data

Results flagged for a closer look

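No member was flagged: groups of 3 are too small for a test of single libraries, and no member was called in the interaction. Of the genes set beside them, 6 differed in their response to hypoxia between the siRNAs by the interaction test in edgeR (log2, oxygen effect under siARNT less that under siControl). It was -0.42 for CDH1 (adjusted p = 0.00517), which kept its call under all 18 alternatives. It was -1.21 for MUC1 (adjusted p = 0.000955), which lost its call with the GC correction alone (-0.45). It was -0.36 for EEF1A1 (adjusted p = 0.0181), lost in 6 of 18. It was 0.35 for TGFBR2 (adjusted p = 0.028) and -0.39 for PPARG (adjusted p = 0.0337), each lost in 11 of 18. It was -0.38 for VIM (adjusted p = 0.0334), lost in 12 of 18.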

How the results depend on the processing

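The 2 siARNT calls of FAM3C kept their direction and side of the threshold in every alternative run, with log2 fold changes of -2.67 to -2.44 in normoxia and -2.74 to -2.61 in hypoxia. The FAM3C hypoxia value in siControl, near 0, changed sign with total count scaling (-0.01) and ran from -0.04 to 0.06 with 1 library left out; FAM3C2P did likewise (-0.01, and -0.07 to 0.07). FAM3C2P for hypoxia in siARNT, in libraries that helped to choose it, passed with DESeq2 (0.40) and the GC correction (0.31). FAM3A for siARNT in normoxia passed with DESeq2 (0.90) and the replicate block (0.83), and ran from 0.44 to 1.10 with 1 library left out. Leaving out 1 library also turned FAM3A for hypoxia in siARNT (-0.48 to 0.25) and for siARNT in hypoxia (-0.08 to 0.44), and the count ratio for hypoxia in siControl (-0.642 to 0.429 points). The causes were not tested. The replicate block changed no other call of a member; same-letter libraries correlated above 0.1 in 9 of 18 pairs (-0.43 to 0.53), so the letters were not taken as pairs. No member event was called under any alternative. Of 54 calls among the other genes, 26 were kept under all alternatives. Calls over all genes moved by more than 1.5 times: for hypoxia in siARNT from 696 to 22 with the compared samples alone, 136 under the well block and 3786 after GC correction. For the interaction they moved from 797 to 373 with the well block, 1495 with total counts and 3026 with the GC correction. With the GC correction they rose from 4299 to 7076 for hypoxia in siControl, from 3431 to 5441 for siARNT in normoxia and from 4948 to 7743 in hypoxia. With 1 library left out they fell from 3431 to 1604, 2157 and 1571 for siARNT in normoxia (without siControl A, B and C) and to 2187 (without siARNT B), which lowers the 20.2% of genes called there. They ran from 129 (without hypoxia siARNT B) to 454 for hypoxia in siARNT, and from 272 (without normoxia siControl C) to 1188 in the interaction; for the other 2 comparisons they stayed within 1.5 times. Total counts put the median of all genes at 0.104 for siARNT in hypoxia. Depth limits FAM3B, FAM3D and the FAM3A events.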
